A study of Mus musculus with 4 samples.

Results

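A small class of excitatory neurons of the mouse spinal dorsal horn, marked by Maf and Bmp6, was picked nucleus by nucleus from single-nucleus RNA sequencing with a rule on raw UMIs (unique molecular identifiers, each standing for 1 captured RNA molecule). A nucleus was a member when it held at least 1 UMI of Slc17a6, the vesicular glutamate transporter of excitatory spinal neurons, and none of Slc32a1, Gad1, Gad2 or Slc6a5, which serve GABA and glycine transmission. Its UMIs of Maf, Bmp6, Plch2 and Atp10a had to sum to at least 3 and to exceed each of 3 sums that mark other excitatory neurons. Those were the sum led by Lmo3 (with Unc5cl, Myo5b, Ptger3, Otof and Col5a2), the one with Car12 (and Fer1l6, Mctp2 and Syt10) and the one led by Nmu (with Tac2, Rxfp1 and Gna14). Nts, Car8 and Rspo2 together had to stay under 3 UMIs. The rule found 362 members among 112194 nuclei kept, of which 12778 were excitatory by the same transmitter genes. The other 12416 excitatory nuclei served as the comparison.

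The study asked what loss of Gpr37l1, a G protein-coupled receptor of astrocytes, does in the cord with and without a nerve lesion. Tissue came from Gpr37l1+/+ mice (wild type) and Gpr37l1-/- mice (knockout), either naive or taken 1 day after spared nerve injury (SNI), a neuropathic pain model in which branches of the sciatic nerve are cut while a branch is left intact. Each of the 4 groups was 1 library, and series of 4 values below give the naive libraries first (wild type, then knockout) and the SNI libraries after them (wild type, then knockout). The sources used here give no strain, age or sex and no number of animals behind a library. The treatment tag contradicts the title for the naive knockout library and for the wild-type library taken after SNI, and the titles were followed. With 1 library per group no test between groups was possible, so every comparison below is a description. Each 95% interval covers counting error only, not the spread between nuclei or between animals. Fewer neurons of a kind and less RNA in each of them are separable here only as far as numbers of nuclei and UMIs per nucleus show it.

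The libraries held 19693, 37497, 27113 and 27891 kept nuclei and between 35197290 and 69572640 UMIs. Members numbered 61, 135, 94 and 72, with median depths of 2189, 2645, 2579.5 and 2184.5 UMIs, above those of the other excitatory nuclei at 1556 to 1754.5. Summed over members, 167465, 415332, 303727 and 207900 UMIs without mitochondrial genes stand behind the levels, which are given as CPM, a UMI count scaled to those totals. Any pair of libraries shared 162 to 292 barcodes, but no barcode was a member in more than 1 library, and 12 members had a barcode that occurred in another library. Malat1, an abundant nuclear RNA, differed widely between libraries, at 97125, 45730, 88952 and 57860 CPM in members. Members of every library held UMIs of the Y-linked genes Uty and Ddx3y and none of Xist.

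Maf (c-Maf) is a large Maf transcription factor with a basic leucine zipper, known from deep dorsal horn interneurons and from low-threshold mechanosensory neurons, and it binds DNA as a dimer at sites built around the letters TGCTGA. Bmp6 is a secreted bone morphogenetic protein that signals through receptor kinases to SMAD proteins. Plch2 (phospholipase C eta 2) cleaves phosphoinositides in a calcium-sensitive way in neurons, and Atp10a is a P4-ATPase that moves phospholipids to the inner leaflet of the plasma membrane. Neurons of the deep dorsal horn receive touch and proprioceptive input and lie below the superficial layers of nociceptive and thermal input.

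Promoters of Bmp6, Plch2 and Atp10a and of the 5 genes that led the members, but not that of Maf, were read for the letters that large Maf proteins bind, because Maf itself defined the class. The sequences are RefSeq promoters on GRCm38.p6, 250 bases before to 50 after the transcription start, and TGCTGA was searched on both strands (TCAGCA on the printed strand is the reverse). Printed below are the promoters of Bmp6 at chr13:38345466-38345765 on the plus strand, of Adarb2 at chr13:8202616-8202915 on the plus strand, and of Zfp804b at chr5:7344329-7344628 on the minus strand, 5′ to 3′, with a match in capitals.
Bmp6: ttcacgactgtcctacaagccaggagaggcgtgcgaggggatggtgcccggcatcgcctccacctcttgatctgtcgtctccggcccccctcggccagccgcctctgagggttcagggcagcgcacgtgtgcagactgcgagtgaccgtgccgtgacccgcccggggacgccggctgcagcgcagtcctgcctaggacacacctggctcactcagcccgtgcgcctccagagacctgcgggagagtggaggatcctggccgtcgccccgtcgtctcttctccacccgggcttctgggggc
Adarb2: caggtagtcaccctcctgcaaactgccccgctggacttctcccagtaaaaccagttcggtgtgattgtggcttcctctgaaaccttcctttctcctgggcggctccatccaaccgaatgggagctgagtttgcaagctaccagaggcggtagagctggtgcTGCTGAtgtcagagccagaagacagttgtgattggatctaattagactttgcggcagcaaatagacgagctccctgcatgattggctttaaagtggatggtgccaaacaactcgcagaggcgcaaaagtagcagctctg
Zfp804b: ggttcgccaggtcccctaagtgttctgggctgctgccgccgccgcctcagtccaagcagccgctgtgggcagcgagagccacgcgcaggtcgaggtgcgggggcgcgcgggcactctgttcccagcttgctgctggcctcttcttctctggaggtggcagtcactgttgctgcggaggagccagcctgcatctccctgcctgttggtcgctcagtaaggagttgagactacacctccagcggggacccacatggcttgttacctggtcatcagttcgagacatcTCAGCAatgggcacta
The match in the Adarb2 promoter began at position -89 from the start on the gene's own strand, and that in the Zfp804b promoter at position 34 on the opposite strand. Of 9 windows of 8 genes searched, these 2 held a match, and none was found in the windows of Bmp6, Plch2, Atp10a, Dpp10, Kcnh8 or Pdzd2. The letters are common, since 6401 of 32851 RefSeq promoters of that length held them (19.485%), and a match is a description of letters, not a binding site.

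Maf was the main marker by which nuclei entered the class, and these 4 genes are described without a test because the rule used them. Maf stood at 729, 686, 705 and 659 CPM in members against 61.0 to 73.4 CPM in other excitatory nuclei. Bmp6 stood at 245, 193, 171 and 197 CPM against 12.8 to 17.1 CPM. Plch2 was the least abundant at 107.5, 96.3, 62.6 and 101 CPM against 8.98 to 13.9 CPM. Atp10a was at 263, 354, 293 and 390 CPM against 33.5 to 44.3 CPM. The order Maf, Atp10a, Bmp6, Plch2 held in all 4 libraries, with the caution that CPM is not scaled by transcript length. A Maf UMI was seen in 84.3% of members, 11.2% of other excitatory nuclei, 12.6% of inhibitory nuclei and 4.74% of oligodendrocyte-marked nuclei, the last with a median depth of 1123 UMIs. Slc17a6 was itself lower in members, at 418, 378, 412 and 462 CPM against 542 to 615 CPM in the other excitatory nuclei, and the rule used it too. In the GENCODE vM21 annotation of GRCm38, Maf lies at chr8:115682942-115707794, Bmp6 at chr13:38345107-38500302, Plch2 at chr4:154983115-155056784 and Atp10a at chr7:58656166-58829420.

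**Figure D1:**
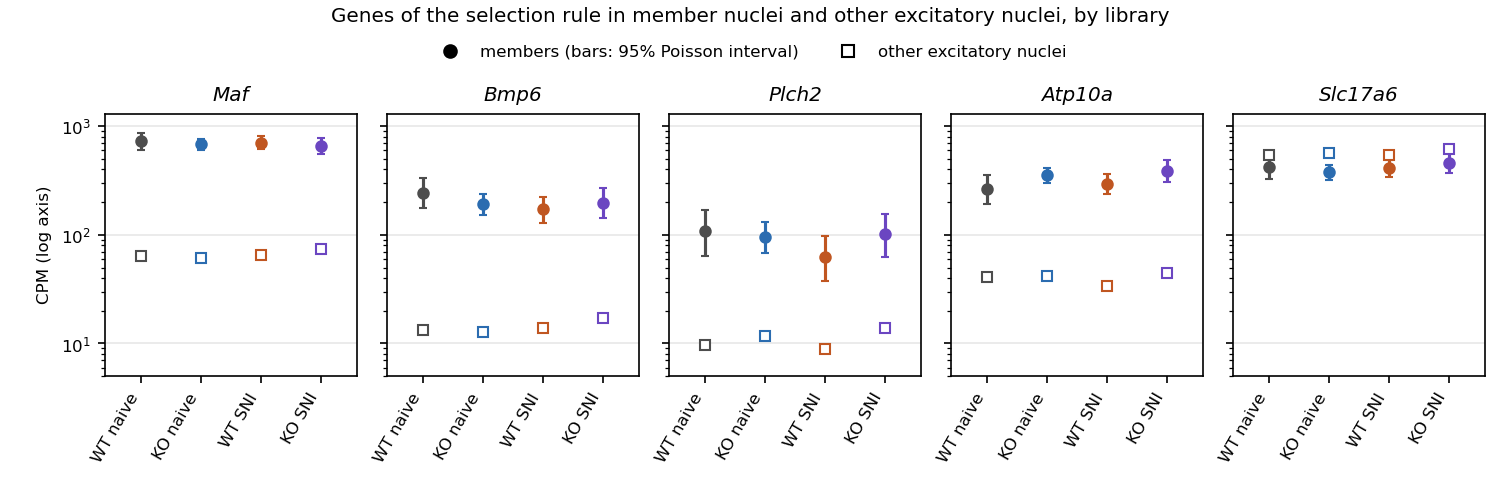
Level in CPM (log axis) of the 4 rule genes and Slc17a6 in each library, for member nuclei (points, with exact Poisson 95% intervals) and for the other excitatory nuclei (squares). Maf lies between 659 and 729 CPM in members of all 4 libraries, and its level in the other excitatory nuclei is at most 73.4 CPM.

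Most members were close to the limit of the rule. The summed rule genes came to exactly 3 UMIs in 196 members (54.1%), to 4 in 84 and to 5 or more in 82, with a highest sum of 17. Just outside, 443 excitatory nuclei had a sum of 2, 29 were kept out by another sum and 14 by Nts, Car8 and Rspo2. A further 130 nuclei with a sufficient sum held an inhibitory UMI, and 1119 had no Slc17a6 UMI. When every nucleus was thinned to 1000 UMIs before the rule was applied, 69 members were left.

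The genes of the rule were often captured singly or in pairs. Among the 353 members without the endothelial signal described next, Maf was detected in 85.6%, Atp10a in 51.6%, Bmp6 in 35.7% and Plch2 in 24.1%. All 4 genes were seen together in 11 members, 3 in 68, 2 in 173 and a single gene in 101. The most frequent combinations were Maf alone in 72 nuclei (20.4%), Maf with Atp10a in 69, Maf with Bmp6 in 51 and Maf with both Bmp6 and Atp10a in 38. Thus the 2 genes of the class's name were seen together in a minority of its nuclei.

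The members carried neuronal RNA at the level of other excitatory neurons, and a few carried vascular RNA as well. The summed pan-neuronal list (Rbfox3, Snap25, Syt1 and others, 10 genes) was at 23509, 24826, 21658 and 23444 CPM against 22747 to 24336 CPM in other excitatory nuclei. Of that list Elavl4, a neuronal RNA-binding protein, was lower in members of every library at 89.6, 101, 95.5 and 96.2 CPM against 148 to 184 CPM. Endothelial markers (10 genes, with Flt1, Cldn5 and Pecam1) summed to 406, 243, 711 and 476 CPM against 23.8 to 68.9 CPM. That sum came from few nuclei: 9 members, 3, 2, 2 and 2 by library, had at least 3 UMIs of the list, and they held 144 of 151 Flt1 UMIs and 117 of 119 UMIs of Slco1a4, an organic anion transporter of brain vessels. The same 9 nuclei held 47 of 361 UMIs of Atp10a but only 4 of 758 of Maf and 1 of 214 of Bmp6. The vascular UMIs of the class thus lay in 9 nuclei, and nearly all of its Maf and Bmp6 UMIs lay in the other 353.

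Glial markers were lower in members than in other excitatory nuclei. Oligodendrocyte markers summed to 1099, 1230, 1281 and 890 CPM against 1512 to 1993 CPM, and astrocyte markers to 164 to 257 CPM against 222 to 405 CPM. Microglia markers came to 166 to 329 CPM against 226 to 547 CPM. Pericyte and fibroblast markers were higher instead, at 113 to 221 CPM against 70.8 to 115 CPM, with Kcnj8 and Slc47a1 at 0. The 9 endothelial-marked members held 62 of the 69 UMIs of Rgs5, a pericyte gene, and this sum is not given without them. Inhibitory identity genes outside the rule, with Ptf1a at 0, came to 657 to 899 CPM against 644 to 937 CPM. Ventral and motor neuron genes reached 203 to 342 CPM against 338 to 370 CPM, with Slc18a3, Isl2 and Mnx1 among those at 0. In 7 members another cell type's list equalled or exceeded the pan-neuronal one, and 27 members (11, 5, 9 and 2) were marked as doublets by scrublet.

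The transmitter genes were fixed by the rule and so do not check the label "excitatory", and the classical markers of dorsal excitatory neurons outside the rule were sparse at this depth. Lmx1b, a transcription factor of the dorsal excitatory lineage, had 8, 31, 19 and 10 UMIs and stood at 47.8 to 74.6 CPM against 57.8 to 69.4 CPM in other excitatory nuclei. Tlx3, which specifies the same lineage, had 0, 2, 3 and 2 UMIs, and Prrxl1 had 4, 13, 3 and 7. Genes linked to the deep dorsal horn were mixed. Rora, an orphan nuclear receptor of deep laminae, was at 1976, 2492, 2324 and 2083 CPM against 1573 to 1788 CPM, and Cck, a peptide of low-threshold excitatory interneurons, at 65.7, 93.9, 92.2 and 125.1 CPM against 78.3 to 103 CPM. Mafa, another large Maf factor, had 6, 5, 2 and 1 UMIs. The lists do not place the members in a lamina, and they are called here by Maf and Bmp6 only.

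The genes outside the rule that stood highest in members were Adarb2, Dpp10, Zfp804b, Kcnh8 and Pdzd2. Genes were compared within each library as the log2 ratio of CPM in members to CPM in other excitatory nuclei, among 2229 genes with at least 100 UMIs in members or expected in them from the other nuclei. Of these, 31 (1.39%) were at least 1.5-fold higher in all 4 libraries and 21 (0.942%) at least 1.5-fold lower, with a median log2 ratio over all tested of -0.04. These ratios describe nuclei chosen on the same counts and carry no test. The named genes below had at least 200 UMIs and were ranked by the library nearest to no difference.

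Adarb2, which encodes a brain RNA-binding protein of the ADAR family without known editing activity, led the list. It stood at 1839, 2131, 1966 and 1881 CPM in members (95% interval 1640 to 2057 CPM in the wild-type naive library) against 458 to 571 CPM in other excitatory nuclei, a log2 ratio of 1.72 to 2.10. Its level in nuclei led by the Lmo3 sum was 273 to 442 CPM, in those led by the Car12 sum 122 to 484 CPM, in those led by the Nmu sum 528 to 944 CPM and in inhibitory nuclei 541 to 666 CPM. All 4 member values were therefore higher than any value of these comparison sets. Adarb2 spans chr13:8202866-8768747 on the plus strand of GRCm38.

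Dpp10, a partner subunit of Kv4 potassium channels, was the most abundant of the leading genes. It was at 9751, 8940, 7642 and 7561 CPM in members against 2383 to 2976 CPM in other excitatory nuclei, a log2 ratio of 1.35 to 1.80. No other set of neurons came near it, with 1572 to 2237 CPM in Lmo3-led, 1340 to 2290 CPM in Car12-led, 1282 to 2200 CPM in Nmu-led and 1828 to 2442 CPM in inhibitory nuclei. Among members both naive libraries lay above both SNI libraries, while in other excitatory nuclei the highest level was in the knockout SNI library.

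Zfp804b, a zinc finger protein gene, was at 1785, 1449, 1278 and 1453 CPM against 521 to 631 CPM, a log2 ratio of 1.20 to 1.72. Kcnh8, which encodes a potassium channel of the Elk family, was at 275, 279, 181 and 216 CPM against 69.6 to 96.1 CPM, a log2 ratio of 1.17 to 1.65. Pdzd2, a protein with many PDZ domains, was at 287, 294, 277 and 394 CPM, a log2 ratio of 1.14 to 1.71. Each of these 3 genes was above every comparison set of neurons in each library, with Zfp804b at no more than 645 CPM in Lmo3-led and Kcnh8 at no more than 146.8 CPM in Car12-led nuclei.

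**Figure D2:**
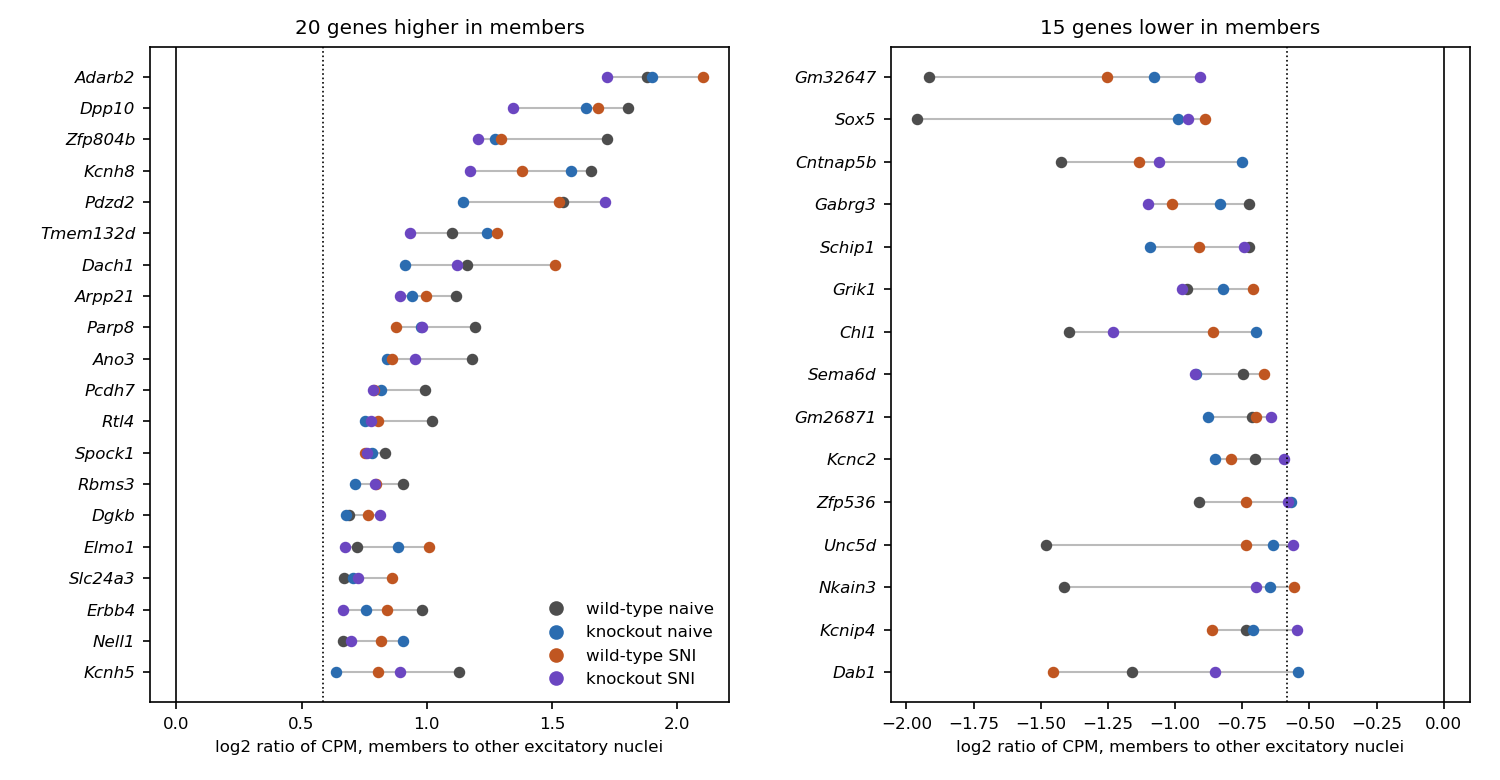
Log2 ratio of CPM in members to CPM in other excitatory nuclei for the leading higher and lower genes, 1 point per library. Adarb2 lies between 1.72 and 2.10 and Dpp10 between 1.35 and 1.80, while Sox5 lies between -1.96 and -0.89.

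Further genes were higher by smaller ratios in every library. Tmem132d, a transmembrane adhesion protein gene, was at 263, 299, 270 and 265 CPM against 111 to 139 CPM. Dach1, a transcriptional cofactor, was at 400, 455, 477 and 418 CPM against 167 to 242 CPM. Arpp21, a cAMP-regulated phosphoprotein that binds RNA, was at 1326, 1134, 1113 and 1198 CPM against 557 to 644 CPM, but reached 711 to 1052 CPM in Car12-led nuclei, so the step to that set was smaller. Ano3, of the anoctamin family, had a log2 ratio of 0.84 to 1.18 and Parp8 one of 0.88 to 1.19. Pcdh7, a protocadherin, was at 2341, 2687, 2025 and 2371 CPM against 1171 to 1524 CPM, and Spock1, a matrix proteoglycan gene, had log2 ratios of 0.75 to 0.83. Dgkb, a diacylglycerol kinase, stood at 938, 997, 961 and 1044 CPM against 566 to 623 CPM, and Erbb4, a neuregulin receptor, at 1612, 1786, 1442 and 1558 CPM against 805 to 1057 CPM. Nell1, a secreted protein gene, had log2 ratios of 0.66 to 0.91 and Kcnh5, a potassium channel of the ether-a-go-go family, ratios of 0.64 to 1.13. Several of these levels were matched in another excitatory set. In Car12-led nuclei Spock1 was at 1003 to 1380 CPM, Erbb4 at 1380 to 1563 CPM and Kcnh5 at 172 to 502 CPM, ranges that overlap those of members. Nell1 was at 431 to 577 CPM in Nmu-led nuclei, against 394 to 498 CPM in members. When nuclei were thinned to 1000 UMIs before the rule, which left 69 members, Ano3, Nell1 and Kcnh5 were not higher in every library. Their lowest log2 ratios were then -0.56, -0.40 and -0.19. These values rest on few UMIs, and a gene without UMIs in a library enters at a fixed floor. They therefore do not show whether the higher levels were lost.

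**Figure D3:**
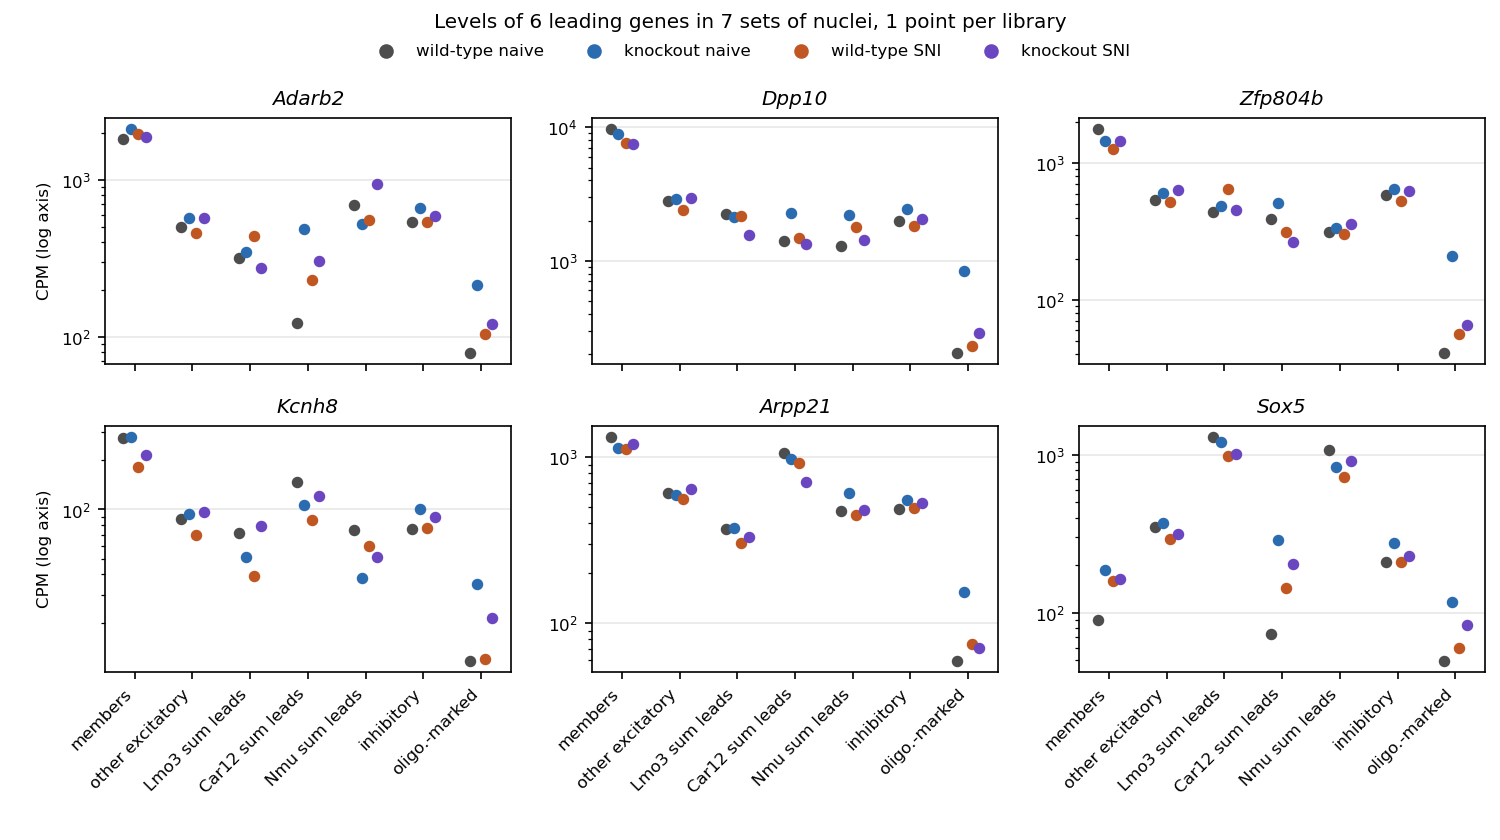
Level in CPM (log axis) of leading genes in members and in the comparison sets of nuclei, 1 point per library. Adarb2 and Dpp10 are higher in members than in every other set, and Sox5 is high in other excitatory sets, up to 1298 CPM in Lmo3-led nuclei.

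Several lower genes were high in other excitatory sets. Sox5, a transcription factor of several dorsal horn populations, was at 89.6, 188, 158 and 164 CPM in members against 292 to 372 CPM in other excitatory nuclei, 985 to 1298 CPM in Lmo3-led and 723 to 1072 CPM in Nmu-led nuclei. In Car12-led nuclei it was at 73.4 to 287 CPM, so low Sox5 was shared with that set. Gabrg3, a GABA-A receptor gamma subunit, was at 412, 436, 323 and 322 CPM against 650 to 776 CPM, with 1830 to 2202 CPM in Car12-led and 1649 to 2082 CPM in Nmu-led nuclei but 393 to 518 CPM in Lmo3-led ones. Grik1, a kainate receptor subunit, was at 185, 238, 214 and 173 CPM against 340 to 422 CPM, and as low in Car12-led (110 to 254 CPM) and Nmu-led nuclei (166 to 309 CPM). Cntnap5b, an adhesion gene, was at 167, 282, 194 and 212 CPM against 426 to 475 CPM. Kcnip4, a Kv4 channel-interacting protein, was at 2604, 3149, 2104 and 2891 CPM against 3820 to 5157 CPM, the most abundant of the lower genes. Unc5d, a netrin receptor, was at 215, 465, 359 and 418 CPM against 597 to 721 CPM, and Sema6d, a semaphorin, at 257, 253, 283 and 260 CPM against 431 to 493 CPM. Dab1, the adaptor of reelin signalling, was at 352, 612, 280 and 447 CPM against 766 to 892 CPM, and at 258 to 528 CPM in Car12-led nuclei. Kcnip4, Unc5d and Dab1 were lower in all 4 libraries but under 1.5-fold in 1 of them. For Sox5, Unc5d and Cntnap5b the wild-type naive members were lowest of the 4 libraries. When nuclei were thinned to 1000 UMIs before the rule, the highest library log2 ratio of Sox5 was 0.064. Such thinned ratios rest on few UMIs, and a gene without UMIs in a library enters them at a fixed floor. The value therefore does not show whether low Sox5 was lost.

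Among ionotropic glutamate receptors, 13 of 18 genes were tested, 1 was higher and 1 lower, and the median log2 ratio was -0.20. Over all 2229 genes tested, 1.39% were higher and 0.942% lower, the shares against which this list and those below are to be read. Counts this small do not set a list apart from them. Grin2a, an NMDA receptor subunit, was the higher one at 961, 1086, 932 and 832 CPM against 434 to 543 CPM, and Grik1 the lower one. Of metabotropic receptors, 5 of 8 were tested and none passed 1.5-fold in all libraries. Grm5, a group I receptor coupled to phospholipase C, was at 2012, 2220, 1867 and 1986 CPM against 1444 to 1819 CPM, a log2 ratio of 0.29 to 0.37. No other glutamate receptor gene tested was past 1.5-fold in all 4 libraries.

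Of receptors for inhibitory input, 1 GABA-A subunit gene was higher and 1 lower. Of 24 GABA and glycine receptor genes, 16 were tested with a median log2 ratio of 0.07. Gabra5, the alpha 5 subunit of extrasynaptic receptors, was higher at 161, 181, 115 and 168 CPM against 67.3 to 76.6 CPM, and Gabrg3 was lower, as given above. Glra1, the adult glycine receptor subunit, was at 424, 380, 382 and 317.5 CPM against 195 to 248.5 CPM, higher in all 4 libraries and past 1.5-fold in all but the knockout SNI one, where the log2 ratio was 0.43.

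Of 42 potassium channel genes, 27 were tested, 3 were higher (Dpp10, Kcnh8 and Kcnh5) and 2 lower (Kcnc2 and Kcnmb2), with a median log2 ratio of -0.12. Over all 2229 genes tested the shares were 1.39% higher and 0.942% lower, and most potassium channel genes tested did not pass 1.5-fold in all libraries in either direction. Kcnc2, a fast Kv3 channel of rapidly firing neurons, was at 293, 315, 270 and 313 CPM against 468 to 569 CPM. Kcnq3, which carries the M current, was at 884, 867, 869 and 875 CPM against 534 to 711 CPM. Of 29 sodium and calcium channel genes, 20 were tested and none passed 1.5-fold in all libraries, with Cacna1a, the P/Q-type calcium channel, at log2 ratios of 0.43 to 0.67.

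Few genes in the pathways of the rule genes had enough UMIs to be compared. Of 37 genes of BMP signalling, 2 had enough UMIs and neither passed 1.5-fold, while Bmp4, Nog and Bambi were at 0 in members. Bmpr1a, a type I receptor, had 11, 27, 25 and 10 UMIs and stood at 48.1 to 82.3 CPM against 75.3 to 90.9 CPM in other excitatory nuclei. The target gene Id1 had 0, 3, 4 and 8 UMIs, in 5 members. In the Maf family list, Bach2, a partner that pairs with small Maf proteins, was the 1 gene tested of 11 and stood at 269, 323, 313 and 332 CPM against 184 to 226 CPM. Of 25 phospholipase C and inositol phosphate genes, 11 were tested, Dgkb was higher, and the median log2 ratio was -0.23. Plcb4 in that list was at 454, 431, 382 and 322 CPM against 249 to 291 CPM. Of 14 flippase genes, 7 were tested and none passed, with a median of -0.03.

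Transcription factors of dorsal excitatory neurons stood near the level of other excitatory nuclei, with 7 of 19 tested, none past 1.5-fold and a median log2 ratio of 0.02. Ebf1, an early B-cell factor family gene, was at 3057, 2422, 2469 and 2612 CPM against 1594 to 1982 CPM, close to 1.5-fold in each library (log2 ratios 0.58 to 0.63). Of 20 deep dorsal horn genes, 14 were tested, Adarb2 and Gabra5 were higher, Sox5 and Col11a1 lower, and the median was 0.19. Superficial dorsal horn genes summed to 436, 342, 454 and 409 CPM against 564 to 685 CPM, and neuropeptide genes to 514, 404, 477 and 404 CPM against 598 to 777 CPM. Both sums were lower in members of every library, with Crh, Ucn3, Prok2 and Cort at 0 in members. The deep dorsal horn list, which includes Adarb2, summed to 5709, 6821, 6213 and 6277 CPM against 4115 to 4583 CPM. The rule kept nuclei led by the Lmo3, Car12 or Nmu sums, or rich in Nts, Car8 and Rspo2, out of members. They stayed in the comparison set, and the part of that selection in these sums was not tested.

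The leading genes were also seen in more members after every nucleus was thinned to 1000 UMIs. That left 355 members, 9894 other excitatory nuclei and 4237 oligodendrocyte-marked nuclei (at least 10 UMIs of their 10 markers, no Slc17a6). Another 7, 2522 and 2434 nuclei of these sets were shallower and were dropped. Median depths before thinning, with the shallower nuclei included, were 2412.5, 1680.5 and 1123 UMIs. Adarb2 was seen in 74.1%, 29.2% and 11.7% of the nuclei left, and before thinning in 85.9% of members and 36.7% of other excitatory nuclei. Dpp10 was seen in 87.0%, 65.7% and 29.2%, and before thinning in 92.3%, 72.1% and 32.8%. After thinning, Zfp804b was seen in 57.2%, 30.3% and 8.61% of the 3 sets, Arpp21 in 69.6%, 39.3% and 8.19%, and Kcnh8 in 21.4%, 8.18% and 2.01%. Shares in members were thus well above the oligodendrocyte background for each gene. In the opposite direction, Sox5 was seen in 11.8% of members and 22.9% of other excitatory nuclei, and Gabrg3 in 20.3% and 41.8%. The oligodendrocyte background was not even across libraries, with Dpp10 in those nuclei at 204, 844, 229 and 287 CPM, highest in the knockout naive library.

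Members without a Maf UMI had lower Adarb2 and Dpp10 and higher Ebf2 than those with one, genes that the rule did not use. The 353 members free of endothelial signal were split, after the data had been seen, into 107 with both Maf and Bmp6, 195 with Maf but not Bmp6 and 51 without Maf. Adarb2 stood at 2434, 2057 and 1082 CPM in that order, and Dpp10 at 9738, 8913 and 4906 CPM. Both were lower in nuclei without Maf in every library, Adarb2 at 763 to 1337.5 CPM there against at least 1993 CPM with Maf. The nuclei without Maf were few, at 11, 17, 11 and 12 by library. They were also shallower in each library, with median depths of 1673, 1954, 2060 and 1693.5 UMIs. Medians in the sets with Maf were 2035 to 2904 UMIs, and the sets were not matched for depth. Ebf2, another early B-cell factor, was higher there, at 425, 392 and 1352 CPM, with 826 to 1986 CPM in nuclei without Maf against at most 543 CPM with it. Zfp804b stood at 2220, 1192 and 1129 CPM over the libraries together, but in the wild-type naive library it was at 2299 CPM without Maf and 2198 CPM with both genes. Rora was even across the 3 sets at 2458, 2302 and 2248 CPM, and Slc17a6 stood at 434, 395 and 513 CPM. Kcnh8 and Arpp21 did not follow Adarb2 and Dpp10, since the nuclei without Maf lay between the other sets for Kcnh8 (298, 224 and 252 CPM) and for Arpp21 (1473, 1066 and 1194 CPM).

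**Figure D4:**
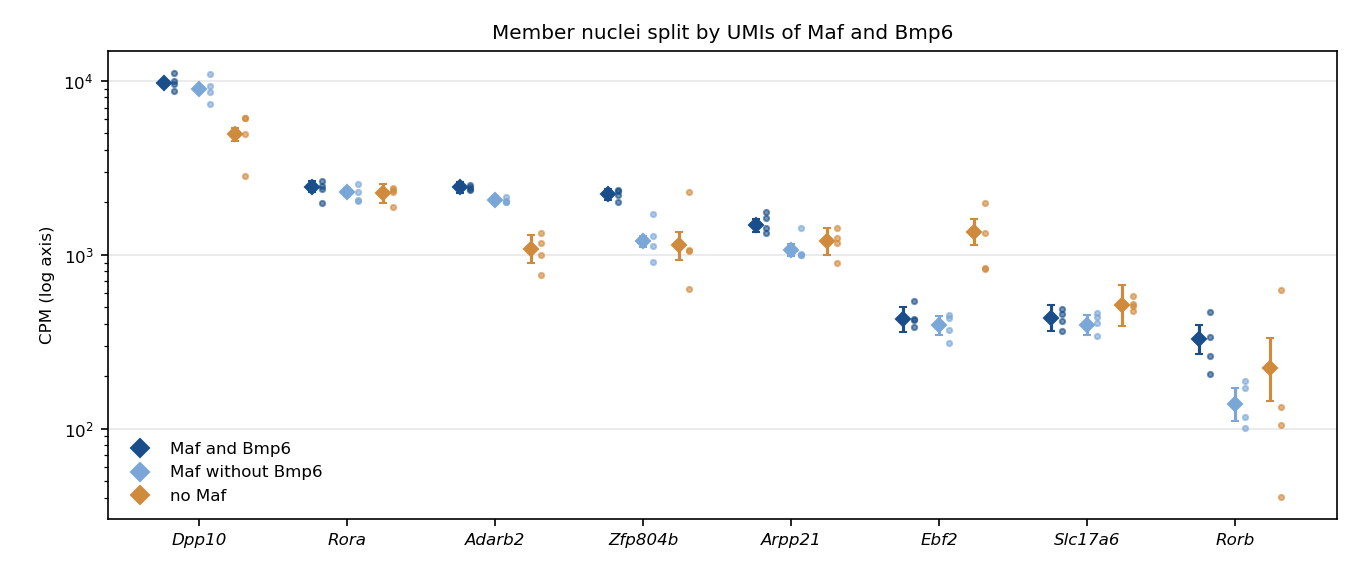
Level in CPM (log axis) of selected genes in members with Maf and Bmp6 UMIs, with Maf but no Bmp6, and without Maf, pooled over libraries with exact Poisson 95% intervals and with 1 small point per library above 0. Adarb2 and Dpp10 are lowest in the members without Maf, at 1082 and 4906 CPM, and Ebf2 is highest there at 1352 CPM.

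Members were a small share of excitatory nuclei in every library, with no test of the difference between libraries. They were 2.98% (exact Clopper-Pearson 95% interval 2.29 to 3.82%), 2.89% (2.43 to 3.41%), 2.97% (2.41 to 3.63%) and 2.48% (1.94 to 3.11%) of excitatory nuclei, and 0.310%, 0.360%, 0.347% and 0.258% of all kept nuclei. These intervals cover the counting of nuclei only. With at least 2 Slc17a6 UMIs, which left 65 members, the shares were 3.18%, 3.26%, 4.79% and 4.16%, with both SNI libraries above both naive ones. After thinning to 1000 UMIs the shares were 0.876%, 1.11%, 1.02% and 1.20%, in which the knockout SNI library was no longer the lowest.

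Gpr37l1, the deleted gene (chr1:135160234-135167681), was hardly seen in these neurons. It had 1, 0, 3 and 0 UMIs in members, or 5.97, 0, 9.88 and 0 CPM, where a count of 0 allows up to 7.22 and 14.4 CPM in the 2 knockout libraries. In other excitatory nuclei it was at 9.68, 0.438, 20.2 and 0 CPM. The labels and the deleted gene's counts therefore matched in the larger set, while members alone are too few to show it.

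Between genotypes, ratios of CPM over members were computed for genes whose UMIs in the 2 libraries compared came to at least 100. In naive libraries 127 of 996 genes (12.8%) were past 1.5-fold, 100 (10.0%) higher in the knockout and 27 (2.71%) lower, and the median gene itself was higher by 0.21 (log2). Set against that median gene, 42 (4.22%) were higher and 50 (5.02%) lower, so the share of higher genes among those past 1.5-fold went from 78.7% to 45.7%. In SNI libraries 55 of 843 genes (6.52%) were past it, 37 (4.39%) higher and 18 (2.14%) lower, with a median of 0.11, and 18 (2.14%) were higher and 29 (3.44%) lower relative to the median gene (67.3% against 38.3% higher). Malat1 was lower in both knockout libraries, as given above, and is counted in each total. Its part in these medians is not given here. Ratios below are log2 and relative to the median gene.

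Genes lower in the knockout in both conditions were lower in other excitatory nuclei too, in most cases. Slc38a2, a neutral amino acid transporter, was at 388, 169, 402 and 284 CPM, with log2 ratios of -1.41 in naive (95% interval -1.92 to -0.90) and -0.61 in SNI libraries (-1.08 to -0.15), against -1.10 and -0.46 in other excitatory nuclei. Ptgds, a prostaglandin D synthase abundant in glia and meninges, was at 316, 156, 428 and 173 CPM, with ratios of -1.22 and -1.41, against -1.00 and -0.85 in the others. Oligodendrocyte marker sums, given above, were higher in the knockout in naive and lower in SNI libraries, and the part of glial RNA in the Ptgds ratio was not tested. Thoc1, of the mRNA export complex, had ratios of -0.89 and -1.40, and Snrnp70, a splicing protein of the U1 particle, -0.75 and -0.79. Fgfr2, a fibroblast growth factor receptor, was at 430, 258, 461 and 289 CPM, with -0.95 and -0.78 in members and -0.82 and -0.06 in the others. Ptprn, a dense-core vesicle protein, had -0.86 and -0.91. In the 65 members with at least 2 Slc17a6 UMIs the SNI ratio of Slc38a2 was 0.018 and the naive ratio of Fgfr2 was 0.072.

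Hdac9, a histone deacetylase, was lower in members of both knockout libraries and not in the other excitatory nuclei. It was at 1206, 823, 958 and 673 CPM, so both wild-type libraries lay above both knockout libraries, with ratios of -0.76 and -0.62 against 0.18 and 0.15 in the others. One wild-type naive nucleus held 28.2% of that library's Hdac9 UMIs, and without the nucleus with most UMIs in each library the naive ratio was -0.39. With every nucleus thinned to 1000 UMIs the SNI ratio was 0.15.

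Other genes were higher in both knockout libraries. Dab1 had ratios of 0.59 (0.17 to 1.02) and 0.57 (0.13 to 1.01) in members and of 0.02 and -0.02 in the others. Arhgap6, a GTPase-activating protein, was at 155, 255, 250 and 385 CPM, with ratios of 0.51 and 0.51 against -0.03 and 0.07. Celf1, an RNA-binding splicing regulator, was at 155, 248, 161 and 308 CPM, with ratios of 0.47 and 0.82. Kcnb2, a Kv2 potassium channel, had ratios of 0.39 and 0.51 against 0.11 and 0.08 in the others. Cacna2d3, a calcium channel alpha2delta subunit, had 0.35 and 0.59 against 0.30 and -0.04, so its naive ratio was not particular to members. The naive intervals covered both signs for Arhgap6 (-0.12 to 1.19), Celf1 (-0.16 to 1.15), Kcnb2 (-0.05 to 0.84) and Cacna2d3 (-0.11 to 0.84). The SNI intervals of these genes were positive throughout, but they leave out the spread between nuclei and between animals and are not a test. Il1rapl2, a synaptic interleukin-1 receptor accessory-like gene at chrX:137570608-138846946, had the highest ratios at 1.57 and 1.01, but rested on single nuclei: 1 nucleus held 81.0% of its UMIs in the knockout SNI library, and without the top nucleus of each library the SNI ratio was -1.18. In the 65 members with at least 2 Slc17a6 UMIs its naive ratio was -0.021.

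Some genes stood out in 1 condition only, and whether the genotype ratio differed between conditions was not tested. In naive libraries Rnf152, a lysosomal ubiquitin ligase, had 6 UMIs in the wild type and 94 in the knockout, a ratio of 2.45 (1.27 to 3.93), with 1.69 in other excitatory nuclei. It lies at chr1:105276914-105356710, on the chromosome of Gpr37l1. Atrn (1.34), Zfhx3 (1.20), a transcription factor of long-range projection neurons, and Trank1 (1.13) were higher in naive members with ratios of 0.04, -0.29 and 0.01 in the others, and all 3 had 16 or fewer UMIs in the wild-type naive library. In SNI libraries Rorb, a nuclear receptor of deep dorsal horn neurons, was lower in the knockout with 95 against 24 UMIs, a ratio of -1.55 (-2.26 to -0.89) and of -0.02 in the others. Rorb was at 203, 161, 313 and 115 CPM in members and was seen in 14, 34, 30 and 14 of them. Mgat4c, a glycosyltransferase gene, and Gpc6, a glypican, had ratios of 0.93 and 0.89 in knockout SNI members and of 0.10 and -0.05 in the others, with 20.6% and 20.0% of the UMIs in 1 nucleus.

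**Figure D5:**
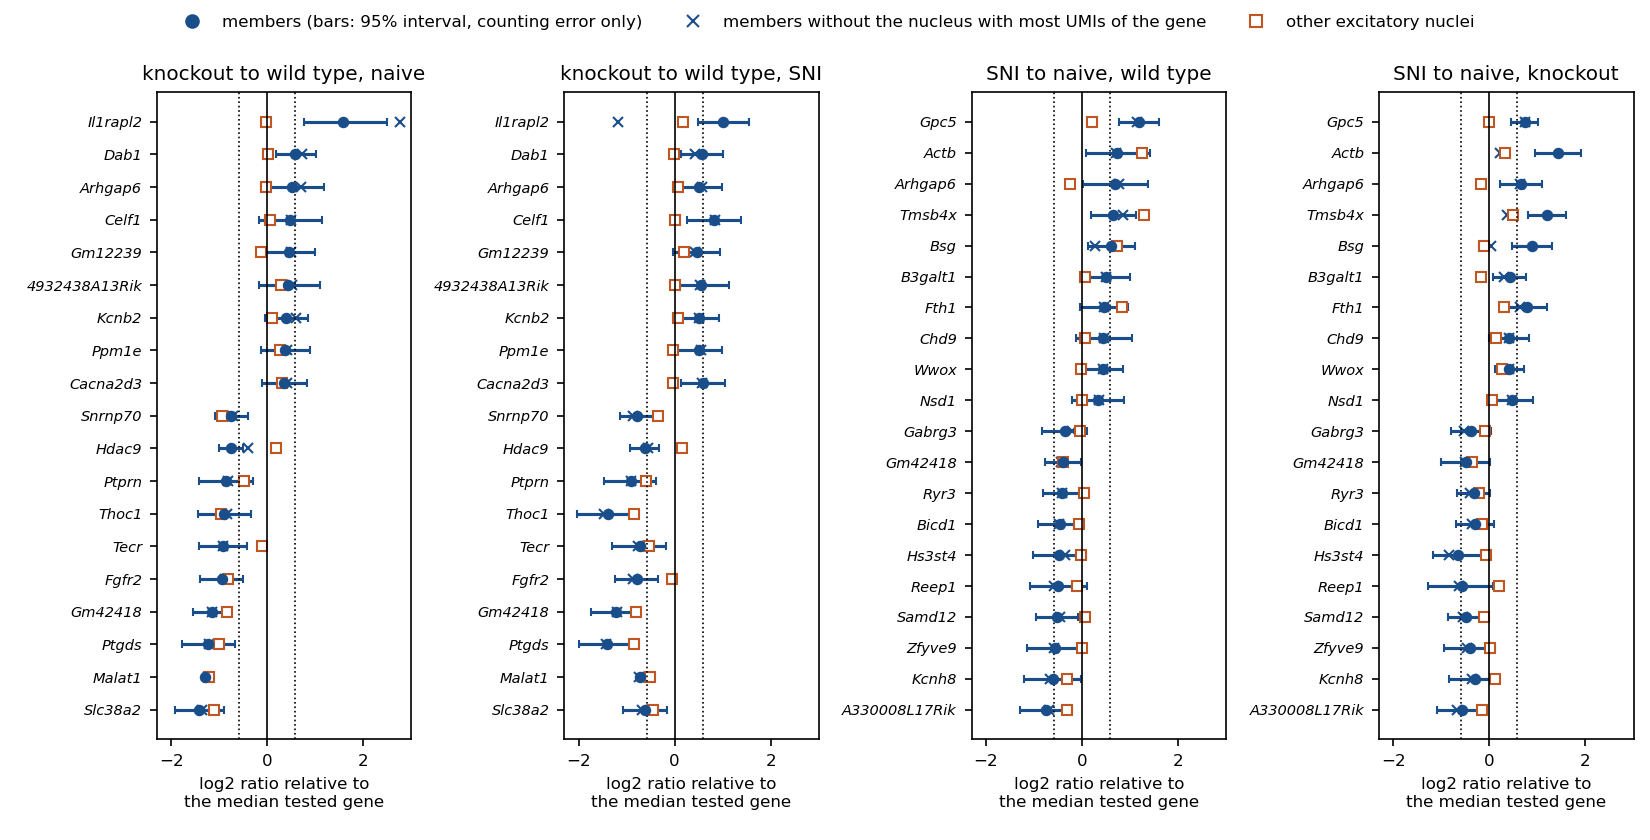
Log2 ratio, relative to the median tested gene, of named genes in the 4 contrasts between libraries, in members (points, with 95% intervals for counting error), in members without the nucleus holding most UMIs of the gene (crosses) and in other excitatory nuclei (squares). Slc38a2 and Ptgds are lower in the knockout in both sets of nuclei, while Gpc5 is higher after injury in members (1.18 and 0.73) and near 0 in the others in the knockout.

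Injury contrasts compared SNI with naive libraries of 1 genotype, and their direction rests on the titles. In the wild type 46 of 725 genes (6.34%) were past 1.5-fold, 32 (4.41%) higher after SNI and 14 (1.93%) lower, with a median log2 ratio of 0.01, and relative to the median gene 30 (4.14%) were higher and 16 (2.21%) lower. In the knockout 61 of 1115 (5.47%) were past it, 26 (2.33%) higher and 35 (3.14%) lower, with a median of -0.06, and relative to the median gene 32 (2.87%) were higher and 21 (1.88%) lower, so the share higher went from 42.6% to 60.4%. Each genotype contrast shares libraries with each injury contrast, so the same library can enter both.

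Gpc5, a glypican of the cell surface, was higher after SNI in members of both genotypes. It was at 358, 578, 817 and 919 CPM, so both SNI libraries lay above both naive ones, with ratios of 1.18 (0.77 to 1.61) in the wild type and 0.73 (0.45 to 1.01) in the knockout. In other excitatory nuclei Gpc5 was at 820, 1036, 935 and 985 CPM, with ratios of 0.21 and 0.00, so SNI members stood at the level of the others and naive members below it. Gpc5 was seen in 22, 85, 54 and 42 members, and no nucleus held more than 17.3% of a library's UMIs. Arhgap6 had ratios of 0.68 and 0.65 against -0.25 and -0.17 in the others. B3galt1, a galactosyltransferase, had 0.51 and 0.42 against 0.06 and -0.18, and Wwox, an oxidoreductase gene, 0.44 and 0.42 against -0.03 and 0.26.

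Of 21 glycolysis and cytoplasmic genes, 4 were tested in each injury contrast, and 1 of them, Actb, was past 1.5-fold higher after SNI in the wild type. Over all genes tested in that contrast the share higher was 4.14%, and a count this small does not set the list apart from it. Of 26 ribosomal protein genes 0 were tested in the wild type and 1 in the knockout. Actb, beta-actin, was at 161, 159, 270 and 409 CPM with ratios of 0.73 and 1.43, but 1 knockout SNI nucleus held 67.1% of that library's UMIs and the knockout ratio was 0.19 without endothelial-marked members. Tmsb4x, thymosin beta 4, had ratios of 0.65 and 1.19 and, without those members, 1.08 and 0.45. In the 65 members with at least 2 Slc17a6 UMIs its knockout ratio was -0.22. Bsg, a glycoprotein of vessels and neurons, had 0.60 and 0.89 and, without them, 1.09 and 0.21, while its wild-type ratio was -0.40 where neuronal markers had to exceed every other list. Fth1, ferritin heavy chain, was at 287, 265, 395 and 438 CPM with ratios of 0.45 and 0.79. Actb and Tmsb4x were higher after SNI in the other excitatory nuclei as well, by 1.25 and 1.29 in the wild type and by 0.32 and 0.50 in the knockout. Ribosomal protein genes in members summed to 1875, 1416, 2153 and 2415 CPM and the glycolysis and cytoplasmic list to 1982, 1830, 2334 and 2400 CPM, both higher in the SNI libraries, and the part of free cytoplasmic RNA in these levels was not tested.

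Genes lower after SNI in both genotypes included Kcnh8, a leading gene of the class. Its ratio was -0.61 (-1.20 to -0.01) in the wild type and -0.31 (-0.84 to 0.20) in the knockout, with -0.31 and 0.11 in the others. Hs3st4, a heparan sulfate sulfotransferase, was at 305, 373, 221 and 226 CPM, with ratios of -0.48 and -0.66 against -0.01 and -0.08. Samd12 was at 478, 583, 336 and 399 CPM, with ratios of -0.52 and -0.48 against 0.05 and -0.12. For both Hs3st4 and Samd12 each naive library lay above each SNI library.

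Of genes at the extremes of 1 genotype, Srrm2, a splicing factor of nuclear speckles, and Arid1b, a chromatin remodelling subunit, were higher by 0.85 and 0.81 after SNI in wild-type members and by 0.08 and 0.01 in the others. Nyap2, a phosphoinositide 3-kinase adaptor, had a ratio of -0.87 in them and of -0.10 in the others. In knockout members Gabra2, a GABA-A receptor subunit, was higher by 1.03 (0.45 to 1.62), with 0.45 in the others, and Stk39, a kinase that regulates chloride cotransporters, had a ratio of -0.91 with 0.02 in the others. Nrg3os was higher by 1.26 in knockout members and by 1.23 in the others, and in naive libraries it was lower in the knockout, with ratios of -1.31 and -1.43, so the knockout naive library stood apart from the other 3 for it in both sets of nuclei.

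Among the lists, few genes passed 1.5-fold relative to the median gene in any contrast. Over all genes tested, 4.22% were higher and 5.02% lower for genotype in naive libraries, and 2.14% and 3.44% in SNI libraries. For injury these shares were 4.14% and 2.21% in the wild type and 2.87% and 1.88% in the knockout. Counts as small as those below do not set a list apart from them. Of pan-neuronal genes 9 of 10 were tested in the naive genotype contrast and 2 were lower in the knockout, Grin1 (-0.76) and Stmn2 (-0.74), with a list median of -0.06. Of potassium channel genes 18 of 42 were tested there, Kcnma1, the BK channel, was higher by 0.59, Kcna1 (-0.77), Kcnh5 and Kcnip1 were lower, and the median was -0.04. In SNI libraries 17 were tested and none passed. Of ionotropic glutamate receptors 12 were tested in each genotype contrast and Grin1 alone passed, in naive libraries. Grin1 is in this list and in the pan-neuronal one, so it is the same result counted again. In the wild-type injury contrast Kcnh5 (-0.60) and Kcnh8 were lower among 16 potassium channel genes, and Grin1 (-0.61) among 8 pan-neuronal ones. In the knockout injury contrast none of 18 potassium channel genes passed, and of 11 GABA and glycine receptor genes Gabra2 alone did. No neuropeptide, immediate early, axon injury or cholesterol synthesis gene had the UMIs to be compared in members.

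Ratios of the rule genes between libraries are bounded by the rule, which asks for a fixed sum in every library, so they are given as values only. Maf had ratios of -0.29 and -0.21 for genotype and -0.06 and 0.00 for injury. Atp10a had 0.22, 0.30, 0.15 and 0.20 in the same order, and Bmp6 -0.55 and 0.09 for genotype and -0.53 and 0.10 for injury, where the values for knockout to wild type after SNI and for injury in the wild type rest on under 100 UMIs.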

How the data were processed

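Single-nucleus libraries of mouse spinal dorsal horn, 1 for each of 4 groups, were used as deposited. Values in the deposited matrices are raw UMI counts, and per the file headers Cell Ranger 7.0.0 wrote them. GRCm38, Seurat 4.3.0 and R 4.3.0 are named in the submitters' processing notes, and the counting of introns is not given in the sources used here. Free RNA could not be measured because only called nuclei are in the files.

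A filter of 300 genes or more and less than 5% mitochondrial UMIs took out 552 of 112746 nuclei. Members followed the rule given with the results. UMIs were summed over nuclei, without mitochondrial genes, and expressed as CPM with exact Poisson intervals, while ratios have exact conditional binomial intervals and shares Clopper-Pearson intervals, all at 95%. A count of 0 was bounded at 3 UMIs. Scripts ran in Python 3.11.15 with scanpy 1.11.5 (scrublet at an expected 10%) and scipy 1.17.1, and were checked on simulated data. Scrublet marked 4.80 to 9.85% of nuclei, using the 90th percentile of scores in both wild-type libraries, where its automatic threshold was not used. Doublets were kept in the values given and left out as an alternative.

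Named genes were the rule genes, Slc17a6 and Gpr37l1, the most abundant or most different members of each list, the 20 highest and 15 lowest genes against other excitatory nuclei, and the 10 highest and 10 lowest genes of each factor with 5 per direction in each contrast. Members and lists were chosen with earlier results of these data known. Of 32285 genes, 32158 matched GENCODE vM21.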

Additional observations from a re-analysis of the deposited data

How the results depend on the processing

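With 1 library per group no library could be left out of a contrast, and no paired analysis was possible because each group is 1 library. Requiring 2 Slc17a6 UMIs left 65 members, a rule gene sum of 4 left 166 and thinning to 1000 UMIs first left 69, against 362. The percent of genes past 1.5-fold for knockout to wild type in naive libraries was 31.3, 29.2, 19.9, 8.23 and 54.1 with 2 Slc17a6 UMIs, thinning, and minimums of 50, 200 and 1 UMIs. For knockout to wild type after SNI it was 12.6, 2.80 and 48.0 at those 3 minimums. For injury in the wild type it was 14.4, 10.0, 13.1, 3.28 and 57.0 with 2 Slc17a6 UMIs, thinning and the 3 minimums, and in the knockout 12.8, 19.4, 12.4, 2.72 and 56.1, with 9.43 at a sum of 4. The percent of genes past 1.5-fold thus moves with the number of UMIs behind it. Against other excitatory nuclei, 2.56% of genes were higher after thinning. In single libraries 5.29, 3.28, 4.89 and 4.49% were higher and 11.1, 7.18, 6.42 and 6.46% lower. Leaving out doublets, requiring neuronal markers above every other list and median-of-ratios scaling moved none of these by over 1.5 times.

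Of the ratios of named genes, 10 changed sign, 220 moved and 1574 did not, counted over all alternatives. The 10 were all ratios between libraries. Ratios of members to other excitatory nuclei could change sign as well. With thinning before the rule, the lowest library ratio was -0.56 for Ano3, -0.40 for Nell1 and -0.19 for Kcnh5. The highest was 0.064 for Sox5, 0.29 for Chl1, 0.49 for Nkain3 and 1.09 for Zfp536, genes lower in members of all 4 libraries without thinning. These thinned ratios rest on few UMIs, from 9, 25, 17 and 18 members by library. A count of 0 enters them as 3 UMIs, and the minimum of 20 UMIs given below was not applied to them. With 2 Slc17a6 UMIs, Fgfr2 was 0.072 and Il1rapl2 -0.021 for genotype in naive libraries, Slc38a2 0.018 for genotype after SNI, Plcl1 -0.063 for injury in the wild type, and Tmsb4x -0.22 and Rgs6 0.28 for injury in the knockout. Hdac9 was 0.15 for genotype after SNI when thinned. Il1rapl2 was -1.42 for genotype after SNI at a sum of 4 and -1.18 without the top nucleus. Bsg was -0.40 for injury in the wild type with neuronal markers above every other list. The causes were not tested. Alternatives with under 20 UMIs gave no value, 114 times for thinning and 21 times for 2 Slc17a6 UMIs. Leaving out endothelial-marked members or the top nucleus, depth-matched comparison nuclei, means over nuclei and totals without Malat1 were chosen after seeing the data.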

Other observations

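Pdzrn3 and Kitl, chosen after their values were seen and below the minimum of 200 UMIs, were also higher in members of all 4 libraries. Pdzrn3, a ubiquitin ligase with PDZ domains, was at 113.5, 144.5, 95.5 and 139.5 CPM against 37.7 to 51.9 CPM in other excitatory nuclei. Kitl, the ligand of the Kit receptor, was at 77.6, 74.6, 79.0 and 81.8 CPM against 14.2 to 17.7 CPM, but 39 of its 85 UMIs lay in the 9 endothelial-marked members. Rorb within the class was at 328 CPM in nuclei with both Maf and Bmp6, 138 CPM with Maf alone and 224 CPM without Maf.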
